A study of Homo sapiens with 12 samples.

Results

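LIN28A and LIN28B are the paralogous genes for the LIN28 RNA-binding proteins, and they were 2 of the 58219 genes in the deposited expression table. Both were chosen by name for their measured pattern over time, high in stem cells and still high in neural progenitors, so their differences between days are given below as a description with no test. The samples were H9 human embryonic stem cells, an established line, either wild type or carrying the genotype labelled SOX21-/-, collected at day 0 as stem cells and at days 4 and 8 of neural differentiation as neural progenitor cells. Each of the 6 combinations of genotype and day had 2 poly(A) RNA-seq libraries, 12 in all, named WT1 and WT2 in the wild type and S13 and S23 in SOX21-/-. The study compared the genotypes over this time course to learn what SOX21, a SOXB transcription factor of the neural lineage, does in early neural differentiation. The sources used here do not say what S13 and S23 stand for, whether each is 1 clone, or whether libraries of a group came from separate cultures. The p-values below therefore measure the spread between these libraries, which may be technical.

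LIN28 proteins bind RNA through a cold shock domain and a pair of zinc knuckles. They are best known for binding precursors of the let-7 microRNAs and blocking their processing. The terminal uridylyltransferases TUT4 and TUT7 then add a uridine tail to the LIN28A-bound precursor, and the exonuclease DIS3L2 degrades it. Mature let-7 in turn represses LIN28 mRNAs and a set of growth genes such as HMGA2 and the IGF2BP family, which makes LIN28 and let-7 a mutually inhibitory pair. In the developing nervous system LIN28 is known from early neuroepithelium, and let-7 from later progenitors and neurons. Poly(A) libraries do not measure mature microRNAs, so the let-7 side is represented here by precursors, host genes, processing factors and target mRNAs.

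The mature 5p forms of the let-7 family are printed because their shared seed defines the sites in the LIN28 mRNAs. Capitals mark the seed, bases 2 to 8 counted from the 5′ end, and the sequences are from RefSeq on GRCh38.p14.
hsa-let-7a-5p: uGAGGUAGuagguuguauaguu
hsa-let-7b-5p: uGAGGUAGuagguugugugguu
hsa-let-7c-5p: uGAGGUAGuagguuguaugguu
hsa-let-7d-5p: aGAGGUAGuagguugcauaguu
hsa-let-7e-5p: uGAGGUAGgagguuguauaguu
hsa-let-7f-5p: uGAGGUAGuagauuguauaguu
hsa-let-7g-5p: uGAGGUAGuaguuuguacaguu
hsa-let-7i-5p: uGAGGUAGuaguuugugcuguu
hsa-miR-98-5p: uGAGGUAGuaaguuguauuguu
All 9 forms were 22 bases long and carried 1 seed. This seed was found in 11 of the 2370 mature names in the same table.

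LIN28 is known to recognise a GGAG element in the loop of many let-7 precursors. The hairpins were searched, on the strand of the precursor, for GGAG between the 5p and 3p arms. Where no 3p form was listed or located, the search ran to the end of the hairpin and so included its 3′ arm. It was present in 9 of the 12 let-7 family hairpins (75%), against 69 of 798 (8.65%) of all RefSeq hairpins with a 5p form. MIRLET7A3, MIRLET7B and MIR98 had no match between their arms. One precursor of each kind is shown, with GGAG in capitals where it was found, MIRLET7G from chr3:52268278-52268361 on the minus strand and MIRLET7A3 from chr22:46112749-46112822 on the plus strand.
MIRLET7G: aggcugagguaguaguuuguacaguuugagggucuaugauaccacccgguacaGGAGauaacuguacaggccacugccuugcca
MIRLET7A3: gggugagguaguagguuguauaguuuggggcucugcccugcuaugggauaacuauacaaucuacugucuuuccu
A match is a description of the letters and not a measured binding site.

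LIN28A lies on chromosome 1 of GRCh38 at 26410778-26429722, plus strand, and spans 18945 bases in GENCODE 29. LIN28B lies on chromosome 6 at 104936616-105083332, plus strand, and spans 146717 bases. The let-7 seed match CTACCTC was searched on the mRNA strand of the 3′ UTR. LIN28A had 1 match in a 3′ UTR of 3264 bases, at position 905. LIN28B had 4 matches in a 3′ UTR of 4549 bases, at positions 44, 2471, 2653 and 4092. Each site is shown in a window of 30 bases, all on the plus strand, with the seed match in capitals.
LIN28A site at chr1:26427347-26427376: tgcacagcctattgaaCTACCTCatttttg
LIN28B site at chr6:105078811-105078840: tacccggttgcaaagtCTACCTCatgcaag
LIN28B site at chr6:105081238-105081267: gtactgatgatagtaaCTACCTCtgagttt
LIN28B site at chr6:105081420-105081449: tgtttacagcaaaaggCTACCTCatagttg
LIN28B site at chr6:105082859-105082888: aaaatgatggtgttgaCTACCTCttgaatc
Across the annotation, 1728 of 18878 3′ UTRs (9.15%) held at least 1 match. Among the 2001 3′ UTRs of 3000 to 4999 bases, which include both LIN28 genes, 413 (20.6%) held a match and 54 (2.70%) held at least 2.

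The day 0 libraries stood apart in composition from the later ones, which touches every level compared between days. Nuclear protein-coding genes took 55.9% to 56.4% of the summed TPM, the authors' transcript abundance normalized for length and library, at day 0 and 83.5% to 87.1% later, and processed pseudogenes took 11.1% to 12.4% against 0.454% to 0.677%. The labels name 3 sequencers and read lengths without assigning them to libraries, so day and any such difference between libraries cannot be told apart. TPM carries no read depth, so the depth behind each value is unknown. The markers moved with the cell labels. The summed level of 8 pluripotent stem cell markers was 2440 to 2634 TPM at day 0 and 151 to 203 TPM at day 8, and that of 9 neural progenitor markers went from 107-119 to 1787-2084 TPM. Young neuron markers summed to 57.3-64.3 TPM at day 0, 69.6-182 TPM at day 4 and 117-254 TPM at day 8. Neural crest markers summed to 39.0-43.6, 40.0-62.6 and 157-244 TPM, and mesoderm and endoderm markers to at most 2.68 TPM, with SOX17 listed at 0 in every library. The part of other cells in the LIN28 levels was not tested. SOX21 mRNA was present in the libraries labelled SOX21-/-. It was 1.26 and 1.39 TPM in wild type and 1.62 and 1.84 TPM in SOX21-/- at day 0, 156 and 166 TPM against 162 and 143 TPM at day 4, and 129 and 100.04 TPM against 253 and 69.9 TPM at day 8 (limma adjusted p = 1, 1 and 0.898). Gene totals do not show whether a coding region is disrupted.

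LIN28A was the more abundant paralog in every library. At day 0 its level was 168 and 171 TPM in wild-type WT1 and WT2, and 176 and 148 TPM in SOX21-/- S13 and S23. At day 4 it was 844 and 859 TPM in wild type and 885 and 952 TPM in SOX21-/-. At day 8 it was 685 and 662 TPM in wild type and 608 and 701 TPM in SOX21-/-. All 4 day 4 libraries lay above all 4 day 8 libraries, and every later library lay above every day 0 library. The group means were 169.6 ± 2.07 TPM in wild type and 162 ± 19.9 TPM in SOX21-/- at day 0 (SD, n = 2 for each group here and below), 851 ± 10.7 and 919 ± 47.6 TPM at day 4, and 674 ± 16.1 and 655 ± 65.7 TPM at day 8.

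LIN28B was lower than LIN28A in every library and had its lowest values at the same day. At day 0 it was 15.9 and 14.9 TPM in wild type and 18.1 and 16.5 TPM in SOX21-/-. At day 4 it was 83.9 and 82.0 TPM in wild type and 101 and 84.9 TPM in SOX21-/-. At day 8 it was 78.1 and 78.0 TPM in wild type and 86.3 and 71.7 TPM in SOX21-/-. The day 0 libraries were all lower than the later ones, whereas the 4 libraries of day 4 and the 4 of day 8 overlapped. Group means were 15.4 ± 0.671 and 17.3 ± 1.17 TPM at day 0, 82.9 ± 1.38 and 93.0 ± 11.5 TPM at day 4, and 78.0 ± 0.0840 and 79.0 ± 10.4 TPM at day 8, wild type first. In bulk RNA, fewer cells holding a transcript and less of it per cell cannot be told apart.

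**Figure D1:**
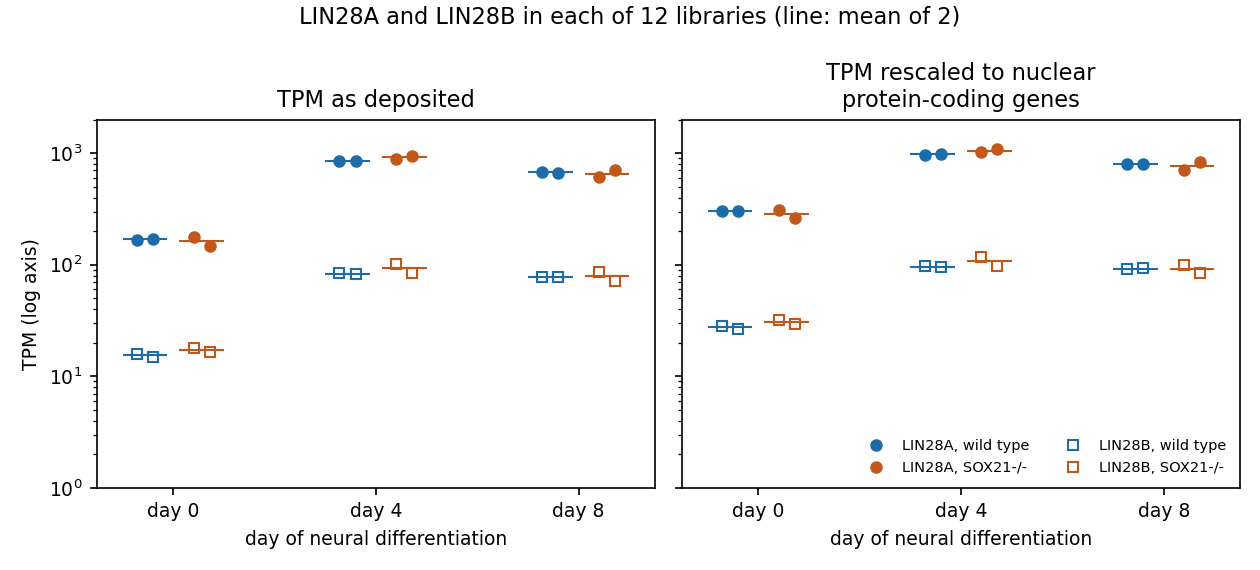
Level of LIN28A (filled circles) and LIN28B (open squares) in each library by day, wild type in blue and SOX21-/- in orange, on a log axis with a line through the mean of the 2 libraries. The left panel shows TPM as deposited and the right panel TPM rescaled to the sum over nuclear protein-coding genes; in both, every day 4 and day 8 library lies above every day 0 library.

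The size of the day 0 to day 4 step depended on how libraries were scaled, while its sign did not. On the log2(TPM + 1) scale, LIN28A was 2.32 higher at day 4 in wild type (4.99-fold) and 2.50 higher in SOX21-/- (5.67-fold). LIN28B was 2.36 higher in both genotypes (5.12-fold in wild type and 5.13-fold in SOX21-/-). The median over all tested genes also moved, by 0.91 in wild type and 0.72 in SOX21-/-, and over nuclear protein-coding genes by 1.06 and 0.90. Both LIN28 genes were above these medians. With TPM rescaled to nuclear protein-coding genes alone, the LIN28A step was 1.69 in wild type and 1.88 in SOX21-/-, and that of LIN28B 1.76 and 1.77. With median-of-ratios scaling, which sets the median gene to no change, the steps were 0.89 and 1.29 for LIN28A and 0.97 and 1.18 for LIN28B.

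From day 4 to day 8 both genes had lower means, by less than their day 0 to day 4 step. LIN28A was lower by a log2 difference of -0.34 in wild type and -0.49 in SOX21-/-, and LIN28B by -0.09 and -0.23. Over the scalings and left-out libraries tried, these stayed below 0, between -0.42 and -0.30 and between -0.75 and -0.37 for LIN28A, and between -0.17 and -0.01 and between -0.49 and -0.10 for LIN28B, wild type first. The median of all tested genes over the same interval was 0.03 in wild type and 0.20 in SOX21-/-. Among 14437 nuclear protein-coding genes, 18.3% in wild type and 11.8% in SOX21-/- had a lower change than LIN28A. For LIN28B these shares were 38.3% and 22.7%.

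Ranks within a library do not depend on its scaling. Among 19804 nuclear protein-coding genes, LIN28A ranked 505 to 574 at day 0, 120 to 130 at day 4 and 136 to 163 at day 8. LIN28B ranked 4210 to 4631, 1320 to 1885 and 1736 to 2081. Neither gene's day 0 ranks overlapped its later ranks, and LIN28A's ranks at days 4 and 8 did not overlap either. Among the 14437 nuclear protein-coding genes tested, the day 0 to day 4 change of LIN28A exceeded that of 92.1% in wild type and 96.2% in SOX21-/-, and that of LIN28B exceeded 92.7% and 94.99%. Genes with transcripts of 4000 to 6000 bases, a length class with 3545 genes, had a median change of 1.13 and an upper quartile of 1.77 in wild type, and 0.94 and 1.59 in SOX21-/-. Both LIN28 genes were above these upper quartiles, and the part of transcript length was not tested.

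**Figure D2:**
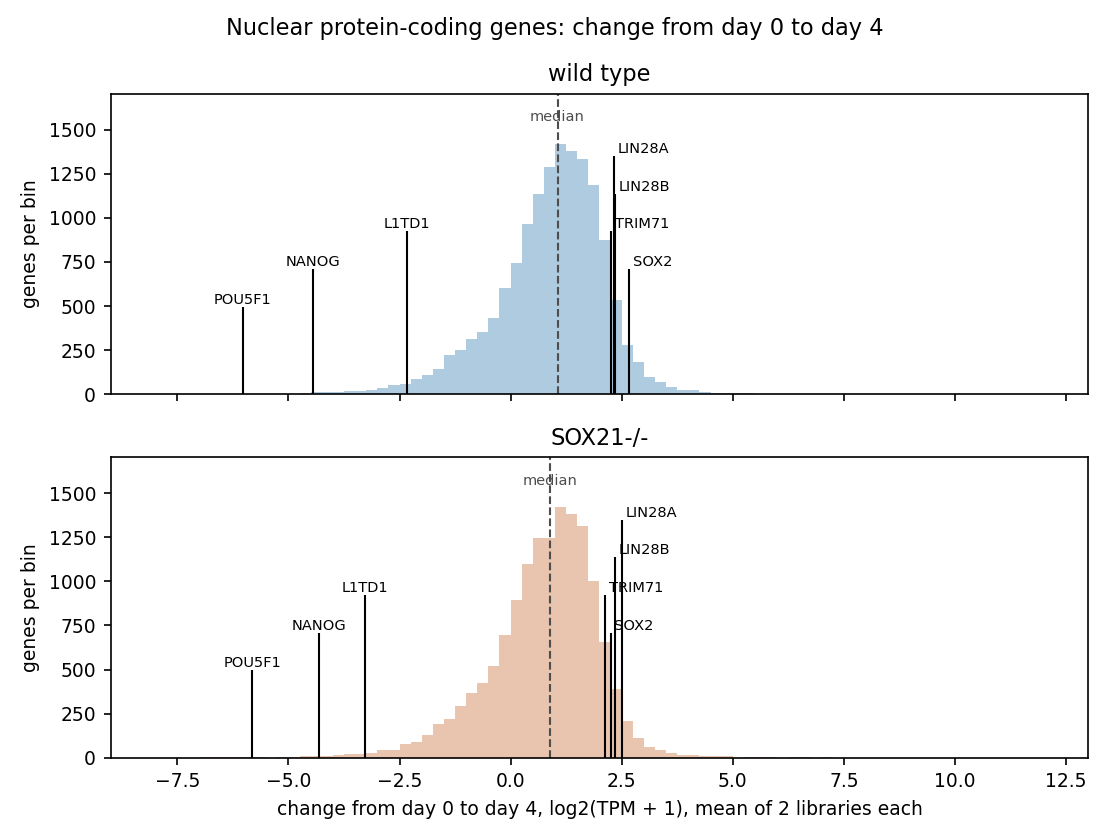
Distribution of the day 0 to day 4 log2(TPM + 1) change over 14437 nuclear protein-coding genes in wild type and SOX21-/- (bins of 0.25), with the median dashed and vertical lines for LIN28A, LIN28B, TRIM71, SOX2, L1TD1, NANOG and POU5F1. LIN28A, LIN28B, TRIM71 and SOX2 lie in the right part of both distributions, and L1TD1, NANOG and POU5F1 in the left tail.

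Ratios between genes of a library are also free of scaling, and they set the LIN28 genes beside other stem cell genes. The ratio of LIN28A to LIN28B was 8.98 to 11.5 over the 4 libraries of day 0, 8.75 to 11.2 at day 4 and 7.05 to 9.78 at day 8. The 3 ranges overlap. LIN28A relative to TRIM71, a let-7 target and ubiquitin ligase of stem cells, was 6.64 to 8.48, 6.70 to 9.99 and 6.60 to 7.57, again with overlap. Relative to SOX2, a factor shared by stem cells and neural progenitors, LIN28A was 2.03 to 2.55 at day 0, 1.95 to 3.05 at day 4 and 1.61 to 1.72 at day 8, so day 8 lay below both earlier days. The ratio to DICER1, the precursor-cleaving nuclease, was 4.16 to 5.22, then 24.3 to 30.3, then 15.2 to 16.9, without overlap. Against POU5F1, the pluripotency factor OCT4, it was 0.0880 to 0.117 at day 0, 26.5 to 41.1 at day 4 and 497 to 2149 at day 8. Over both genotypes together, the ratio to LIN28B or TRIM71 therefore overlapped at all 3 days, and the ratio to POU5F1 at none. Within wild type the ratio to LIN28B did not overlap, at 10.6 to 11.5, 10.1 to 10.5 and 8.50 to 8.78. In SOX21-/- it did, at 8.98 to 9.71, 8.75 to 11.2 and 7.05 to 9.78. The ratio to TRIM71 in SOX21-/- was 6.96 to 8.48, 9.26 to 9.99 and 6.60 to 6.69, without overlap. In wild type only day 8, at 7.48 to 7.57, lay apart, above the earlier days.

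**Figure D3:**
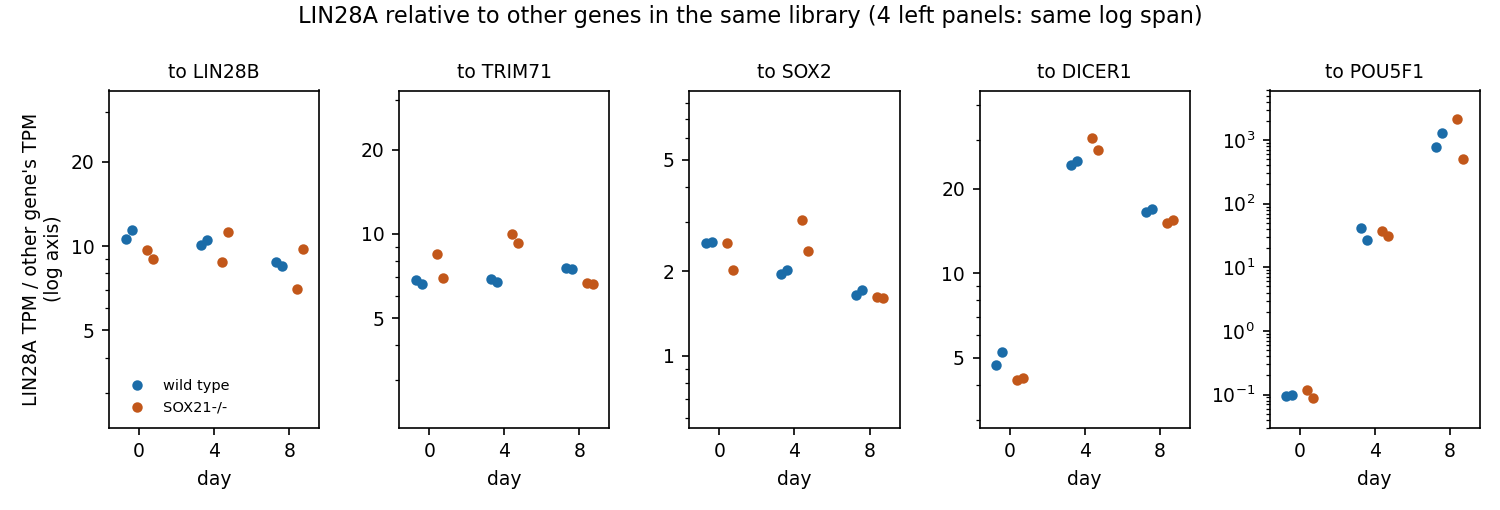
Ratio of LIN28A TPM to the TPM of LIN28B, TRIM71, SOX2, DICER1 and POU5F1 in each library by day, on log axes, blue for wild type and orange for SOX21-/-; the first 4 panels span the same number of log units. Over both genotypes together, the ratios to LIN28B and TRIM71 overlap between days. The ratio to POU5F1 goes from at most 0.117 at day 0 to at least 497 at day 8.

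No genotype difference in LIN28A or LIN28B passed the test at any day. The test was limma over all 24248 tested genes with Benjamini-Hochberg adjustment, in which 0.384% of genes were called at day 0, 0.775% at day 4 and 2.79% at day 8 in either direction. For LIN28A the log2 difference, SOX21-/- minus wild type, was -0.07 at day 0 (95% interval -0.29 to 0.15, limma adjusted p = 1), 0.11 at day 4 (-0.11 to 0.33, adjusted p = 0.629) and -0.04 at day 8 (-0.26 to 0.18, adjusted p = 0.906), with a standard error of 0.096. For LIN28B it was 0.16 at day 0 (-0.11 to 0.42, limma adjusted p = 1), 0.16 at day 4 (-0.11 to 0.43, adjusted p = 0.550) and 0.01 at day 8 (-0.26 to 0.28, adjusted p = 1), with a standard error of 0.117. The unadjusted p-values of these 6 comparisons ran from 0.212 to 0.922. At day 4 both SOX21-/- libraries lay above both wild-type libraries for each gene, as they did for LIN28B at day 0, and in the other comparisons the genotypes overlapped. The median of all genes at day 4 was itself -0.12. Under the 22 alternative settings neither gene was called at any day, with smallest adjusted p-values of 0.219 for LIN28A and 0.223 for LIN28B, both at day 4.

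The change of the genotype difference over time was not called either. In this interaction contrast limma called 0.408% of genes for the first step (day 0 to day 4), 1.11% for the second (day 4 to day 8) and 0.940% for the whole course (day 0 to day 8). LIN28A gave 0.18 for the first step (-0.13 to 0.49, limma adjusted p = 0.656), -0.15 for the second (-0.46 to 0.16, adjusted p = 0.651) and 0.03 for the whole course (-0.28 to 0.34, adjusted p = 0.972). LIN28B gave 0.0030 (-0.38 to 0.38, limma adjusted p = 1), -0.15 (-0.53 to 0.23, adjusted p = 0.743) and -0.14 (-0.52 to 0.24, adjusted p = 0.823) in the same order. The intervals bound any such difference at these n and do not show that the genotypes are alike.

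**Figure D4:**
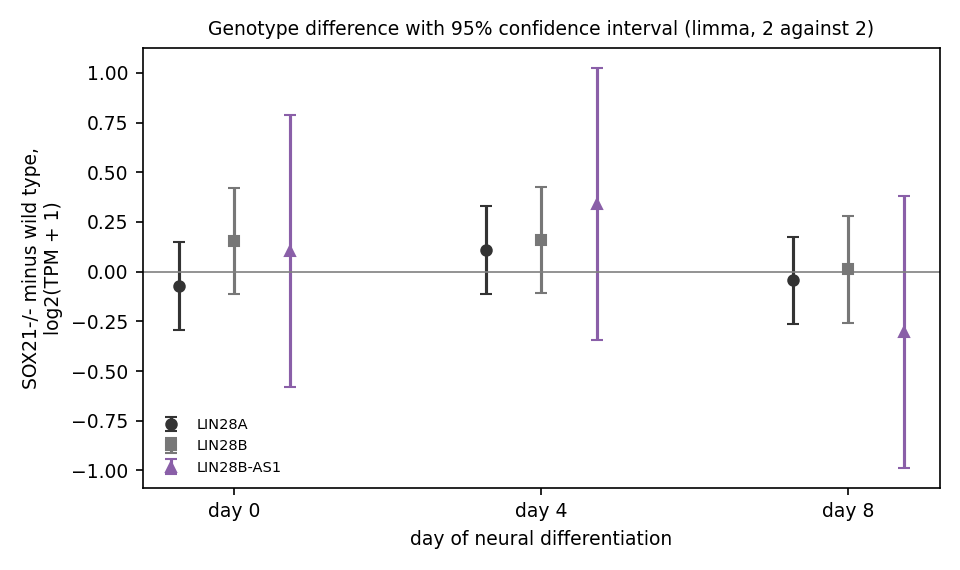
Log2 difference between SOX21-/- and wild type for LIN28A, LIN28B and LIN28B-AS1 at each day, points with 95% intervals from limma over 2 libraries per group. Every interval includes 0, and those of LIN28B-AS1 are the widest.

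LIN28B-AS1, a lincRNA on the opposite strand at chr6:104864464-104941447, overlaps LIN28B by 4832 bases. No source used here says whether the quantification used strand, and in the overlap the reads of the pair cannot be told apart. Its level was 0.280 and 0.910 TPM in wild type and 0.423 and 0.987 TPM in SOX21-/- at day 0, 3.09 and 5.89 TPM and 5.38 and 6.09 TPM at day 4, and 9.86 and 9.35 TPM and 8.02 and 7.19 TPM at day 8. The days did not overlap. It rose from day 0 to day 4 by 1.76 in wild type (limma adjusted p = 0.000804) and 2.00 in SOX21-/- (adjusted p = 0.000421), in a step where 54.3% and 48.1% of all genes rose, and by 0.99 and 1.31 under median-of-ratios scaling. From day 4 to day 8 the differences of 0.998 (limma adjusted p = 0.0658) and 0.35 (adjusted p = 0.435) did not pass. Unlike LIN28B, the antisense gene thus had its highest values at day 8, a contrast of orders that was not tested. The genotype differences were 0.10, 0.34 and -0.30 at days 0, 4 and 8 (limma adjusted p = 1, 0.627 and 0.705). The processed pseudogenes LIN28AP1 and LIN28AP2 were listed at 0 in every library.

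The LIN28B and LIN28B-AS1 start regions are shown because the genes are read in opposite directions, away from each other, from neighbouring starts, and both had higher levels after day 0. RefSeq places a LIN28B start 438 bases from the antisense start, and a second LIN28B start 16142 bases further downstream. The promoter windows, 250 bases before to 50 after the start, overlap by 63 bases. They are LIN28B at chr6:104940715-104941014 on the plus strand (73% G or C) and LIN28B-AS1 at chr6:104940478-104940777 on the minus strand (78%), against a median of 58.7% over all windows. Each is written in the direction of its own gene, with the start base in capitals.
LIN28B: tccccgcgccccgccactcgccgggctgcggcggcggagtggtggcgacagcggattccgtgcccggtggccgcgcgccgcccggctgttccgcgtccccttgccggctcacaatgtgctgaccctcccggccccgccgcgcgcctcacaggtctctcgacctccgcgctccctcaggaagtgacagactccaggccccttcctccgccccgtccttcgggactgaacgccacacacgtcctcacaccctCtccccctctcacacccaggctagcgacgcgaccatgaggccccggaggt
LIN28B-AS1: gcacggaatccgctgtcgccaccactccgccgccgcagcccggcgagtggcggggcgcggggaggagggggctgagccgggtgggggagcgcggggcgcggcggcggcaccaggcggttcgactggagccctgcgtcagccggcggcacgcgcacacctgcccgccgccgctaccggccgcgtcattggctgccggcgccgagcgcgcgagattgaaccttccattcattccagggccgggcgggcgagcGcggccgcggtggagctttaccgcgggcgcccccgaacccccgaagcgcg
The second LIN28B window at chr6:104956857-104957156 had 39% G or C. Both strands of the LIN28B windows were searched for 3 motifs. The SOX core AACAAT had no match in either window and was found in 10.1% of 35116 promoter windows. The E-box CACGTG had no match in the first and 1 in the second (7.26% of windows), and the octamer ATGCAAAT had none in either (1.77%). LIN28A was not among the promoter windows used here.

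The let-7 biogenesis and decay factors moved in both directions. Of 20 listed genes, all tested, 14 rose and 4 fell from day 0 to day 4 in wild type, where 54.3% of all genes rose and 11.4% fell, and 13 rose and 4 fell in SOX21-/-, where 48.1% rose and 12.5% fell. The list median was 1.37 in wild type and 1.25 in SOX21-/-, against 0.91 and 0.72 for all genes. For nuclear protein-coding genes it was 1.06 and 0.90. Under median-of-ratios scaling the counts became 5 higher and 7 lower in wild type and 5 and 8 in SOX21-/-. XPO5, which exports precursors from the nucleus, fell from 182-231 TPM at day 0 to 58.8-66.0 TPM at day 4, a change of -1.90 in wild type and -1.63 in SOX21-/- (limma adjusted p = 2.96e-06 and 8.02e-06). DROSHA, the nuclear nuclease that cuts primary transcripts, fell from 136-165 TPM to 49.5-89.9 TPM, a change of -0.85 and -1.47 (limma adjusted p = 0.00543 and 0.000263). DGCR8, its RNA-binding partner, went the other way from 9.97-12.9 TPM to 54.5-86.1 TPM, and rose by 2.71 and 2.29 (limma adjusted p = 9.15e-07 and 2.49e-06). PRKRA, a DICER1 partner, rose by 2.19 and 2.22. These 4 directions held under every scaling tried. DICER1 itself lay between 29.2 and 45.2 TPM in all 12 libraries on the deposited scale. Its day 0 to day 4 differences of 0.0065 and -0.27 did not pass (limma adjusted p = 0.988 and 0.0955). From day 4 to day 8 it rose by 0.41 in SOX21-/- (limma adjusted p = 0.0419), where 19.0% of all genes rose. Its wild-type difference of 0.22 in that step did not pass.

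The enzymes that act on LIN28A-bound precursors had higher TPM after day 0, with calls that depended on the scaling. TUT4, listed as ZCCHC11, was 20.7 to 25.8 TPM at day 0, 59.2 to 93.5 TPM at day 4 and 105 to 122 TPM at day 8. It rose by 1.91 in wild type and 1.37 in SOX21-/- in the first step, and the SOX21-/- call was lost under median-of-ratios scaling. TUT7, listed as ZCCHC6, was far lower, at 2.96-3.68, 8.72-12.7 and 9.53-16.4 TPM, and rose by 1.36 and 1.40. DIS3L2 was 6.63-8.89, 16.8-26.4 and 17.7-26.0 TPM and rose by 1.55 and 1.12. For TUT7 and DIS3L2 both calls were lost under median-of-ratios scaling. From day 4 to day 8 TUT4 rose by a further 0.89 in SOX21-/- (limma adjusted p = 0.00263), and in wild type differed by 0.32 without passing. Over the whole list 0 genes rose and 3 fell in wild type in that step, against 7.62% and 4.99% of all genes, and 4 rose and 3 fell in SOX21-/-, against 19.0% and 7.15%. Between genotypes limma called none of the 20 at any day, with 0, 4 and 2 at an unadjusted p under 0.05 at days 0, 4 and 8. Of all 24248 genes, 1425, 4107 and 3944 were under that value.

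Precursor transcripts were thinly measured. Of the 12 let-7 family precursors in the table, MIRLET7A2, MIRLET7A3, MIRLET7B, MIRLET7C and MIRLET7E were listed at 0 in every library, 6 were above 0 in some, and MIRLET7D alone was above 0 in all, at 10.8 to 55.1 TPM with a median of 22.7 TPM. These transcripts are short, poly(A) selection does not target them, and the reads behind their values are unknown. Of the 21 listed precursor and host genes 11 were tested, and 5 rose and 0 fell from day 0 to day 4 in wild type and 3 rose and 0 fell in SOX21-/-, where 54.3% and 48.1% of all genes rose, so the members did not rise more often than the background. HUWE1, whose introns hold MIR98 and MIRLET7F2, went from 38.1-44.3 TPM to 81.5-137 TPM and rose by 1.52 and 1.21. WDR82, which hosts MIRLET7G, rose by 2.04 and 2.15 from 8.50-13.4 TPM. MIRLET7I rose by 3.63 in wild type (limma adjusted p = 0.0309), a call lost in 9 alternatives of which 4 left out 1 library, and was above 0 in 8 of 12 libraries. From day 4 to day 8 MIR100HG, host of a let-7 and miR-100 cluster, rose by 1.62 in wild type and 2.26 in SOX21-/- (limma adjusted p = 0.00749 and 0.000932) to 5.03-7.91 TPM. No member was called between genotypes by limma. Of the 11 tested, 1, 2 and 1 had an unadjusted p under 0.05 at the 3 days, against 1425, 4107 and 3944 of all 24248 genes.

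Genes known as let-7 targets mostly moved in the same direction as LIN28A and LIN28B in the first step. Of 31 genes, all tested, 28 rose and 1 fell in wild type (54.3% and 11.4% of all genes). In SOX21-/- 23 rose and 1 fell (48.1% and 12.5%). Their medians were 1.72 and 1.43, against 0.91 and 0.72 for all genes and 1.06 and 0.90 for nuclear protein-coding genes. Under median-of-ratios scaling 15 were higher and 8 lower in wild type, and 15 and 9 in SOX21-/-, against 23.2% and 29.2% of all genes in wild type and 22.7% and 28.3% in SOX21-/-. A seed match was found in the 3′ UTR of 23 of the 30 targets with a UTR, among them TRIM71 with 6, NR6A1 with 5, and HMGA2 and IGF2BP1 with 4 each. MYC, MYCN, CCND1, CCND2, CDK6 and HRAS were among those with none in the UTR used.

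TRIM71 was 24.6 and 25.8 TPM in wild type and 20.7 and 21.2 TPM in SOX21-/- at day 0, 122 and 128 TPM and 88.6 and 103 TPM at day 4, and 90.5 and 88.5 TPM and 90.9 and 106 TPM at day 8. It rose by 2.27 and 2.13 in the first step (limma adjusted p = 4.1e-07 and 6.24e-07), and fell by 0.48 from day 4 to day 8 in wild type (adjusted p = 0.0198), where SOX21-/- differed by 0.04. HMGA2, an architectural chromatin protein, was 40.4-45.2 TPM at day 0, 150.5-192 TPM at day 4 and 144-167 TPM at day 8, and rose by 2.08 and 1.94 in the first step. IGF2BP1, an mRNA-binding protein, was 38.7-45.3, 106-140.3 and 116-124 TPM and rose by 1.66 and 1.43. Its paralog IGF2BP3 was 129 to 139.5 TPM at day 0. It differed by 0.04 and -0.21 in the first step, neither passing on the deposited scale. From day 4 to day 8 it rose by 0.33 in SOX21-/- (limma adjusted p = 0.0368), where wild type differed by -0.29 without passing. PRTG, a neural progenitor receptor of the immunoglobulin superfamily, had the largest change of the list, 7.19 and 6.97, from 1.85-2.39 TPM to 387-459 TPM. NR6A1, an orphan nuclear receptor of early embryos, rose by 2.99 and 2.90. TRIM71, HMGA2, IGF2BP1, NR6A1 and PRTG rose under every scaling tried.

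From day 4 to day 8, 2 of the 31 targets rose and 5 fell in wild type, against 7.62% and 4.99% of all genes, and 6 rose and 4 fell in SOX21-/-, against 19.0% and 7.15%. MYCN, a transcription factor that also acts at the LIN28 genes, fell in both genotypes. It was 70.5 and 71.1 TPM in wild type and 82.9 and 69.7 TPM in SOX21-/- at day 4, and 36.5 and 44.3 TPM and 19.4 and 15.1 TPM at day 8. The log2 change was -0.80 in wild type (limma adjusted p = 0.0266) and -2.08 in SOX21-/- (adjusted p = 0.000323), and the difference between these steps, -1.28, did not pass (interaction adjusted p = 0.0611).

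Between genotypes, 0 of the 31 targets were called at day 0, 1 at day 4 and 5 at day 8, beside the background of 0.384%, 0.775% and 2.79% given above. An unadjusted limma p under 0.05 was found for 1, 13 and 14 of them, against 1425, 4107 and 3944 of all 24248 genes. At day 8 the called genes were mixed in direction, 2 higher and 3 lower. CCND1, cyclin D1, was 87.9 and 82.9 TPM in wild type against 166 and 129 TPM in SOX21-/-, a difference of 0.77 (limma adjusted p = 0.0246). MYCN differed by -1.18 (SE 0.181, limma adjusted p = 0.0143), MYC by -1.10 (adjusted p = 0.0423) from 19.3 and 19.4 TPM to 11.1 and 6.48 TPM, and PRTG by -0.51 (adjusted p = 0.0236) from 567 and 561 TPM to 387 and 402 TPM. At day 4 CCND2, cyclin D2, differed by -0.69 (limma adjusted p = 0.0470). The calls of MYCN and CCND1 were lost in 3 and 4 of 22 alternatives, those of PRTG, MYC and CCND2 in 7, 13 and 18, with adjusted p-values between 0.0504 and 0.237 where lost. Of single day 8 libraries, leaving out WT2 or S23 ended the MYCN call (adjusted p over its lost calls 0.0939 to 0.116), and WT1, WT2 or S13 the CCND1 call (0.0857 to 0.155). Leaving out any 1 of the 4 day 8 libraries ended the PRTG call, and any 1 of the 12 libraries the CCND2 call. The MYC call ended without WT1, WT2 or S23 of day 8, and without either library of 3 other groups.

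Other RNA-binding genes of stem cells and progenitors split. Of 32 listed genes beside the LIN28 pair 30 were tested, and 17 rose and 7 fell from day 0 to day 4 in wild type, against 54.3% and 11.4% of all genes, and 14 and 8 in SOX21-/-, against 48.1% and 12.5%. The rising share was near the background, and the medians of 0.71 and 0.30 were below those of all genes. Under median-of-ratios scaling 9 were higher and 13 lower in wild type, 8 and 13 in SOX21-/-. L1TD1, an RNA-binding protein known to interact with LIN28 in human embryonic stem cells, fell from 64.6-81.2 TPM at day 0 to 4.09-15.0 TPM at day 4 and 1.73-3.37 TPM at day 8. Its first step was -2.32 in wild type and -3.27 in SOX21-/- (limma adjusted p = 7.99e-05 and 1.2e-05). RBM47, an epithelial RNA-binding protein, fell from 98.4-151 TPM to 0.766-1.08 TPM, and the splicing regulator ESRP1 fell by 4.13 in wild type and 4.24 in SOX21-/-. RBFOX2 and NOVA1, splicing factors of the nervous system, rose by 2.80 and 2.59 in wild type and 2.66 and 2.28 in SOX21-/-.

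At day 8 this list had 2 of 30 genes higher and 0 lower in SOX21-/-, where 2.79% of all genes were called. None was called at days 0 and 4 by limma (2 and 11 at an unadjusted p under 0.05, against 1425 and 4107 of all 24248 genes). MSI1, a neural progenitor RNA-binding protein reported to act with LIN28 on let-7 processing, was 60.8 and 64.1 TPM in wild type and 46.6 and 57.4 TPM in SOX21-/- at day 4, and 81.5 and 76.5 TPM against 159.9 and 173 TPM at day 8. The difference at day 8 was 1.07 (limma adjusted p = 0.0101). ZFP36L1, an AU-rich element binding protein, was 203 and 226 TPM against 148 and 156 TPM at day 4, and 198 and 192 TPM against 282 and 298 TPM at day 8, a difference of 0.57 (limma adjusted p = 0.0462). The MSI1 call was lost in 3 of 22 alternatives, without WT2 or S23 of day 8 or with the day 8 libraries alone, and the ZFP36L1 call in 14 of 22 alternatives, among them each of the 4 day 8 libraries left out.

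Within the cold shock domain family, which also holds the YBX proteins, CARHSP1 and CSDC2, LIN28A took 10.2% to 11.9% of the summed TPM at day 0, 29.5% to 32.8% at day 4 and 25.4% to 28.2% at day 8. LIN28B took 0.991% to 1.23%, 2.81% to 3.50% and 2.88% to 3.63%. Of the other 6 genes, 3 rose and 2 fell in the first step in both genotypes, where 54.3% and 11.4% of all genes did so in wild type and 48.1% and 12.5% in SOX21-/-, with medians of 0.62 and 0.61 against 0.91 and 0.72 for all genes. YBX3 fell by 1.65 in wild type and 1.93 in SOX21-/-. YBX1 rose by 0.98 and 1.08 on the deposited scale, but with median-of-ratios scaling it was at -0.45 and -0.14. YBX3 was the only family gene called between genotypes, at day 8, where 2.79% of all genes were called. It was 117 and 117 TPM in wild type and 89.6 and 80.2 TPM in SOX21-/- (difference -0.46, limma adjusted p = 0.0161). The call was lost in 5 of 22 alternatives, 3 of which left out WT1, WT2 or S23 of day 8.

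Transcription factors listed as candidates for the LIN28 genes, SOX2, POU5F1, NANOG, SALL4, MYC, MYCN, TCF3 and SOX21 itself, did not share 1 direction. TCF3 was counted by its gene symbol alone, and whether it acts at the LIN28 genes was not tested. Of 8 listed, 4 rose and 3 fell from day 0 to day 4 in wild type (54.3% and 11.4% of all genes), and 4 rose and 4 fell in SOX21-/- (48.1% and 12.5%). SOX21 was 1 of the 4 that rose, by 6.13 and 5.81. POU5F1 fell by 6.02 and 5.82, and NANOG by 4.44 and 4.31. SOX2 rose by 2.66 and 2.25, from 66.5-72.7 TPM to 290.4-432 TPM, and SALL4, a zinc finger factor of stem cells, rose by 2.57 and 2.17. MYC fell by 0.84 and 1.24 (limma adjusted p = 0.00944 and 0.00126) while MYCN rose by 1.76 and 1.78 (adjusted p = 3.79e-05 and 4.06e-05). The wild-type MYCN call was lost with median-of-ratios scaling, at 0.37. Nothing here tests which of these factors acts on the LIN28 genes.

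The genes most like each LIN28 gene were found by Pearson correlation of log2(TPM + 1) over the 12 libraries among 10569 protein-coding genes. They are a description, since all points share the day 0 to day 4 shift and the libraries' composition. For LIN28A they were LAPTM4B (r = 0.997), NUS1, WTAP, MFSD14B and ZNF426. LAPTM4B, a lysosomal membrane protein, was 88.5-104 TPM at day 0, 347-352 TPM at day 4 and 268-301 TPM at day 8. For LIN28B they were PRDX3 (r = 0.998), COX8A, ODC1, TSPAN6 and FKBP2. ODC1, ornithine decarboxylase of polyamine synthesis, was 28.9-35.9, 551-753 and 502-599 TPM. The 2 paralogs correlated at 0.986, which placed LIN28B only 436th for LIN28A and LIN28A 627th for LIN28B, and 2964 and 3550 genes reached 0.95. Over the 8 libraries of days 4 and 8 alone none of the 5 genes stayed among the closest 5 for either paralog, and LIN28A and LIN28B correlated at 0.462.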

How the data were processed

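Poly(A) RNA was sequenced from 12 libraries of H9 cells. The authors deposited 1 table of TPM per gene and library, whose submitters' processing notes name CASAVA 1.7, Salmon 0.8.2 and hg38. No source used here gives the annotation release, the strand setting or the depth. TPM was transformed to log2(TPM + 1), and limma tested the 24248 genes that reached 1 TPM in 2 or more libraries. The fit used limma 3.58.1 in R 4.3.3 with 1 mean per genotype and day, a trend on mean expression and 6 residual degrees of freedom. Tests were two-sided, p-values were Benjamini-Hochberg adjusted over all tested genes within a comparison, and the threshold was 0.05. The members, gene lists and tests were chosen with earlier results of these data known. Named genes were LIN28A, LIN28B and SOX21, up to 6 passing members per list and comparison by size of change, those listed at 0, the fixed names TRIM71, HMGA2, IGF2BP1, IGF2BP3, MYCN, DICER1, DROSHA, DIS3L2, TUT4 and TUT7, and the 5 genes most like each member with a mean of at least 5 TPM. Ratios, ranks, rescaled TPM, transcript length classes and the day steps of listed genes under each setting were added after seeing the data. Alternatives changed the pseudocount, filter, scaling, moderation, libraries used and line block. Gene models were from GENCODE 29, and the 3′ UTR used was the longest among each gene's CCDS transcripts. Scripts were tested on simulated data. Some members of the gene lists are counted in their list but not reported by name here.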

Additional observations from a re-analysis of the deposited data

Results flagged for a closer look

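In 2 listed RNA-binding genes the genotype difference itself changed between day 4 and day 8 by limma's interaction test. MSI1 changed by 1.33 on the log2 scale (SE 0.213, limma adjusted p = 0.0351): its SOX21-/- libraries were below wild type at day 4 by -0.27 and above it at day 8 by 1.07. ZFP36L1 changed by 1.06 (SE 0.167, limma adjusted p = 0.0328), from -0.49 to 0.57. Over all tested genes this contrast called 1.11%. The MSI1 call was lost in 12 of 23 alternatives (adjusted p 0.0506 to 0.128) and the ZFP36L1 call in 13 of 23 (0.0505 to 0.127), with median-of-ratios scaling and the line block among them. Leaving out any 1 library ended the MSI1 call, except S13 or S23 of day 0 and S23 of day 4, and ended the ZFP36L1 call, except S13 or S23 of day 0. Neither direction was reversed in any alternative. LIN28A and LIN28B changed by -0.15 each over the same step and were not called.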

How the results depend on the processing

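The genotype and interaction values of LIN28A and LIN28B were called under no alternative. Signs near 0 turned: the LIN28A difference at day 8 was 0.00098 with quantile normalization, the LIN28B difference at day 8 was -0.030 with quantile normalization and -0.0042 with nuclear protein-coding genes only, and the LIN28B interaction from day 0 to day 4 was -0.0039 with pseudocount 0.1. Leaving out each library in turn moved LIN28A between -0.198 and 0.0517 at day 0, between -0.147 and 0.0580 at day 8 and between -0.0962 and 0.154 for the day 0 to day 8 interaction, and LIN28B between -0.121 and 0.144 at day 8 and between -0.122 and 0.128 for the day 0 to day 4 interaction. Counts over all genes moved more. At day 0, 93 genes were called between genotypes, against 159 with no filter, 203 with median-of-ratios scaling, 8 with nuclear protein-coding genes only, 45 with the libraries of that day alone and 59 to 114 with a library left out. At day 4, 188 (58 higher, 130 lower) became 120 (82 and 38) when scaled by median of ratios, 107 under robust moderation, 128 (72 and 56) after quantile normalization, 14 to 191 with a library left out and 0 with day 4 libraries alone (3288 at an unadjusted p under 0.05 in limma). At day 8, 676 became 34 with day 8 libraries alone and 170 to 774 with a library left out. The 99 interaction calls from day 0 to day 4 became 58 with TPM of at least 5, 163 with no filter, 26 with nuclear protein-coding genes only, 53 with the days compared alone and 38 to 80 with a library left out. The 270 from day 4 to day 8 became 154 with pseudocount 0.1, 112 with median-of-ratios scaling, 45 with the days compared alone and 54 to 242 with a library left out. The 228 from day 0 to day 8 became 147 with TPM of at least 5, 142 with the days compared alone and 89 to 209 with a library left out. From day 0 to day 4 in wild type, 15931 became 10499 with nuclear protein-coding genes only. Day 4 to day 8 counts ran from 1038 to 3188 in wild type and from 3634 to 6162 in SOX21-/- with a library left out. The cause of these moves was not tested, beyond fewer genes or libraries entering. With the replicate block (line label as a fixed effect) the 3 interaction counts became 22, 17 and 98. Same-line deviations over all genes correlated at -0.00603 to 0.0712 between days. With 2 libraries per group, these values cannot show whether a label names the same line at each day. Unknown depth limits what low TPM values can show.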
